A study of Mus musculus with 10 samples.

Results

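PACAP and VIP are related neuropeptides of the secretin family. The genes examined were the peptide genes Adcyap1 (PACAP) and Vip (VIP) and the receptor genes Adcyap1r1 (PAC1), Vipr1 (VPAC1) and Vipr2 (VPAC2). They were chosen by symbol, and these 5 genes were all found among the 54838 gene identifiers of the count tables. Both peptides are cut from longer precursors and stored in dense-core vesicles. PACAP is the high-affinity ligand of PAC1, whereas VPAC1 and VPAC2 bind PACAP and VIP with similar affinity. All 3 receptors couple to Gs and raise cAMP, and PAC1 also couples to phospholipase C. In the hippocampus, VIP is best known as a product of a class of GABAergic interneurons, and Adcyap1 has been described in hilar mossy cells, the glutamatergic neurons of the dentate hilus.

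Ribosome-bound mRNA was sequenced from dorsal and ventral hippocampus after translating ribosome affinity purification (TRAP), in which EGFP-tagged L10a ribosomal subunits are precipitated from the cells that carry them. Every mouse was a C57BL/6 Drd2-Cre;Eef1a1LSL.eGFPL10a/+ male of about 10 weeks, so that both groups share these alleles. By their labels the groups differ in the dissected region, and measures of library quality that also differed are given below. There were 5 dorsal and 5 ventral libraries, each from the pooled tissue of 5 mice. Hippocampi of 25 mice were divided into both regions, so dorsal and ventral pools may come from the same animals. The labels do not say which do, and the p-values below treat the libraries as independent. Dorsal tissue was the dorsal end of the hippocampus and ventral tissue the longer remainder without the medial ventral pole, and no treatment was given. Cre is driven here by Drd2, which is active in mossy cells and in sparse cells of other types, so the libraries are enriched for mossy cells and are not pure.

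Counts on genes were 11138676 to 20594364 per library, and 3 counts correspond to 0.146 to 0.269 CPM (counts scaled to library size). All 9 mossy cell markers were measured, of which Gria2, an AMPA receptor subunit, was the most abundant. The list summed to 1870 to 2180 CPM in dorsal and 1970 to 2300 CPM in ventral libraries. By gene, 4 of the 9 were called dorsal-enriched (15.7% of all tested genes) and 2 ventral-enriched (9.85%). All 10 GABAergic interneuron markers were measured as well and summed to 3620 to 4900 CPM in dorsal and 4380 to 5720 CPM in ventral libraries, with Gad2, a glutamate decarboxylase, as the most abundant. An adjusted p below 0.05 was reached by 6 of the 10 with ventral higher (14.6% of all tested genes), the direction of Adcyap1 below. Of these, 4 were called ventral-enriched (9.85% of all tested genes). By edgeR 0 of the 10 were called dorsal-enriched (15.7% of all tested genes), with 1 higher in dorsal at an unadjusted p below 0.05 and 0 by DESeq2. Markers of GABAergic neurons were thus present in every group beside those of the mossy cells that the labels name. In such bulk samples, fewer cells of a type and less RNA per cell cannot be told apart.

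The 2 ligands are encoded by similar sequences in part of their coding regions. The stretches compared encode a 27-residue PACAP peptide and the 28-residue VIP peptide. The VIP stretch lies at chr10:5644024-5644107 and the PACAP stretch at chr17:93203990-93204070 of GRCm38, both on the plus strand and inside the coding sequence. Only the first 27 codons of the VIP stretch are printed. Over the 27 codons compared, 62 of 81 bases (76.5%) were identical and 19 codons encoded the same residue. Capitals mark the identical bases.
Adcyap1: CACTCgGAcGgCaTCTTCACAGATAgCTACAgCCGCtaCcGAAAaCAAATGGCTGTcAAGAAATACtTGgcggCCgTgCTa
Vip: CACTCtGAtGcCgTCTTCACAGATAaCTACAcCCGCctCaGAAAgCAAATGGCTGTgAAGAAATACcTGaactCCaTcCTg

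Both ligand genes also carry TGACGTC, a core of the cAMP response element that CREB family proteins bind, in their promoter window (250 bases before to 50 bases after the start, RefSeq, GRCm38.p6). The windows were searched on both strands. The letters begin 91 bases before the most upstream annotated Adcyap1 start (chr17:93198906-93198952 for the stretch shown). Another annotated Adcyap1 start lies downstream, and in its window the same letters begin at base 9 of 300, near the far edge. Their distance from Adcyap1 thus depends on the start used. In Vip the letters begin 79 bases before the start (chr10:5639119-5639165). They are in capitals below.
Adcyap1: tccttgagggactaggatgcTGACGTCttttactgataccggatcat
Vip: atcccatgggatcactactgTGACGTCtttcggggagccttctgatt
TGACGTC was found in 3.21% of 32851 windows of this length, and in none of the windows of Adcyap1r1, Vipr1 and Vipr2. The longer TGACGTCA was in no window of the 5 genes. The shorter TGACG was in 20.8% of all windows and in those of Adcyap1, Vip and Vipr1. The split between ligand and receptor genes thus depended on the letters searched. A match is a description of the sequence, not a binding site.

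The ligand Adcyap1 (ENSMUSG00000024256, chromosome 17 from 93199017 to 93206537) had more mRNA in the ventral libraries. It had 6.68, 7.28, 6.13, 6.73 and 5.58 CPM in dorsal replicates 1 to 5. It had 20.5, 12.9, 5.66, 18.5 and 11.8 CPM in ventral replicates 1 to 5. The dorsal libraries were close together, 4 of 5 ventral libraries lay above all of them, and ventral replicate 3 lay among them. The means were 6.48 ± 0.646 CPM dorsal and 13.8 ± 5.87 CPM ventral (SD, n = 5 each), 2.14-fold higher in ventral. The log2 fold change of dorsal over ventral was -1.13 ± 0.30 (SE; edgeR quasi-likelihood test, Benjamini-Hochberg adjusted p = 0.0108), and without ventral replicate 3 it was -1.30 (adjusted p = 0.00147).

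The PAC1 gene Adcyap1r1 (ENSMUSG00000029778, chromosome 6 from 55451978 to 55501451) was higher in the dorsal libraries. It had 91.4, 109.7, 106, 91.8 and 95.9 CPM in dorsal replicates 1 to 5. It had 75.2, 87.5, 44.3, 69.1 and 65.0 CPM in ventral replicates 1 to 5. Every dorsal library was above every ventral library, and ventral replicate 3 was again the lowest of its group. The means were 98.9 ± 8.35 CPM dorsal and 68.2 ± 15.8 CPM ventral (SD, n = 5 each), 1.45-fold higher in dorsal. The log2 fold change was 0.54 ± 0.15 (SE; edgeR adjusted p = 0.0142). A gene was called enriched when its adjusted p was below 0.05 and the log2 ratio of mean CPM plus 1 was beyond 0.58, and at 0.53 Adcyap1r1 fell short of that ratio. Without ventral replicate 2 it was called dorsal-enriched (log2 fold change 0.63, adjusted p = 0.00607).

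**Figure D1:**
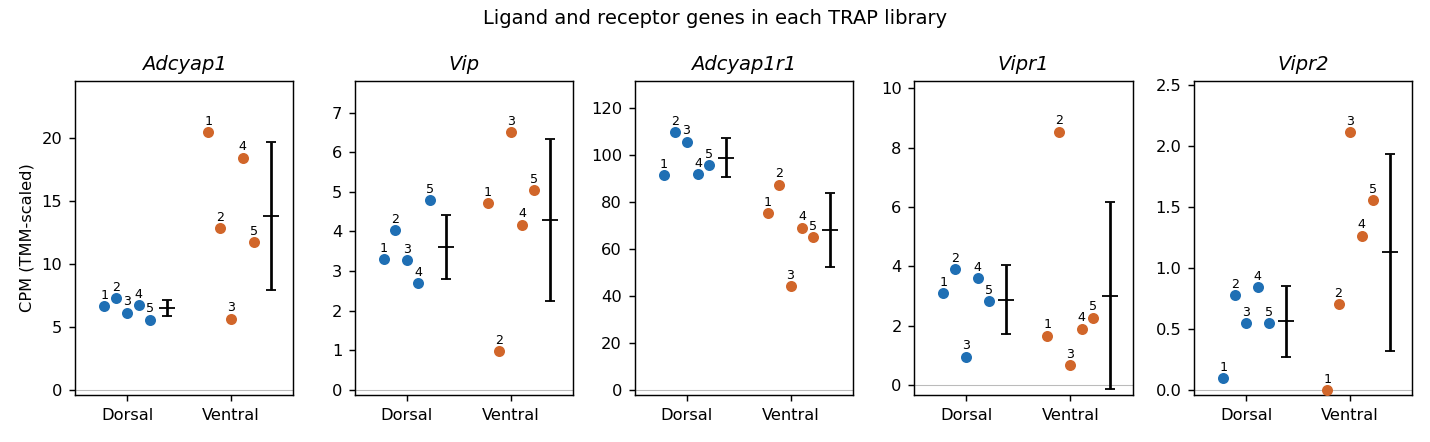
CPM (vertical axes, TMM-scaled, linear and different for each gene) of the 5 genes in the dorsal (blue) and ventral (orange) libraries, each point a library with its replicate number and each bar the mean ± SD (n = 5). Adcyap1r1 has no overlap between the groups, and Adcyap1 overlaps only through ventral replicate 3 at 5.66 CPM.

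The second ligand gene, Vip (ENSMUSG00000019772, chromosome 10 from 5639218 to 5647617), was not called. It had 3.29, 4.03, 3.27, 2.70 and 4.79 CPM in dorsal replicates 1 to 5. It had 4.72, 0.968, 6.50, 4.18 and 5.05 CPM in ventral replicates 1 to 5. Ventral libraries lay above, among and below the dorsal ones, with ventral replicate 2 the lowest of all 10. The log2 fold change was -0.30 ± 0.35 (SE; edgeR adjusted p = 0.542), and 2 SE on either side span -0.99 to 0.40, so a change of up to about that size in either direction is not resolved. With offsets for GC content and exonic length the fold change was -1.13 (adjusted p = 0.0163) and Vip was called ventral-enriched, while the median of all tested genes was then -0.18.

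The VPAC genes were low and variable. Vipr1 (ENSMUSG00000032528, chromosome 9 from 121642716 to 121672954) had 3.10, 3.90, 0.954, 3.60 and 2.83 CPM in dorsal replicates 1 to 5. It had 1.66, 8.54, 0.675, 1.90 and 2.27 CPM in ventral replicates 1 to 5. The groups overlapped, and ventral replicate 2 stood far above the other ventral libraries. Its log2 fold change was 0.07 ± 0.53 (SE; edgeR adjusted p = 0.93), with 2 SE spanning -0.99 to 1.14, and its sign changed with the method.

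Vipr2 (ENSMUSG00000011171, chromosome 12 from 116077726 to 116146261) was the lowest of the 5 genes, with 0 to 33 counts per library. It had 0.0941, 0.780, 0.545, 0.841 and 0.550 CPM in dorsal replicates 1 to 5. It had 0, 0.704, 2.11, 1.27 and 1.56 CPM in ventral replicates 1 to 5. The highest 3 libraries were ventral and the lowest was also ventral, where 0 counts allow a level of up to 0.160 CPM (counting error only). The log2 fold change was -0.87 ± 0.63 (SE; edgeR adjusted p = 0.30), with 2 SE spanning -2.13 to 0.40, and without ventral replicate 1 it was -1.24 (edgeR adjusted p = 0.0682). The ventral libraries ranged from 0 to 33 counts, and the library with 0 was among the deeper ones. An antisense gene, Gm20658, lies across the Vipr2 locus but shares no exonic base with it.

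All 5 genes passed the expression filter of CPM above 1 in at least 2 libraries. Vipr2 passed it through ventral libraries alone, as its highest dorsal value was 0.841 CPM. Of them, 1 was called ventral-enriched, against 9.85% of the 16806 tested genes (25.5% were called in either direction). By edgeR 0 were called dorsal-enriched, against 15.7% of tested genes; 1 member was higher in dorsal at an unadjusted p below 0.05, and DESeq2 and the edgeR likelihood-ratio test called 0. An adjusted p below 0.05, whatever the ratio, was reached by 2 members (33.6% of tested genes), 1 higher in dorsal (19.0%) and 1 higher in ventral (14.6%), and the same 2 had an unadjusted p below 0.05 (44.8%). The libraries did not overlap for 1 member with dorsal higher (9.81% of tested genes) and for 0 with ventral higher (8.36%). With 5 members these counts are not a result about the set.

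Levels between genes were compared per kb of exon. Over the 10 libraries Adcyap1r1 had 12.7 ± 3.05 CPM per kb, Adcyap1 2.69 ± 1.46, Vip 1.16 ± 0.443, Vipr1 0.507 ± 0.386 and Vipr2 0.189 ± 0.145 CPM per kb (SD, n = 10). On this scale 20.5% of tested genes lay above Adcyap1r1, 52.0% above Adcyap1 and 95.8% above Vipr2. PAC1 mRNA was therefore the main receptor mRNA of the 3: it made up 94.5 to 98.2% of their summed level per kb in dorsal and 89.0 to 97.5% in ventral libraries. Adcyap1 made up 51.2 to 69.2% of the level of the 2 ligands in dorsal and 43.9 to 92.3% in ventral libraries. Ventral replicate 3 had the lowest share and ventral replicate 2 the highest. These ligand shares depend on the exon length used for Vip, as does the order of the ligands below.

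**Figure D2:**
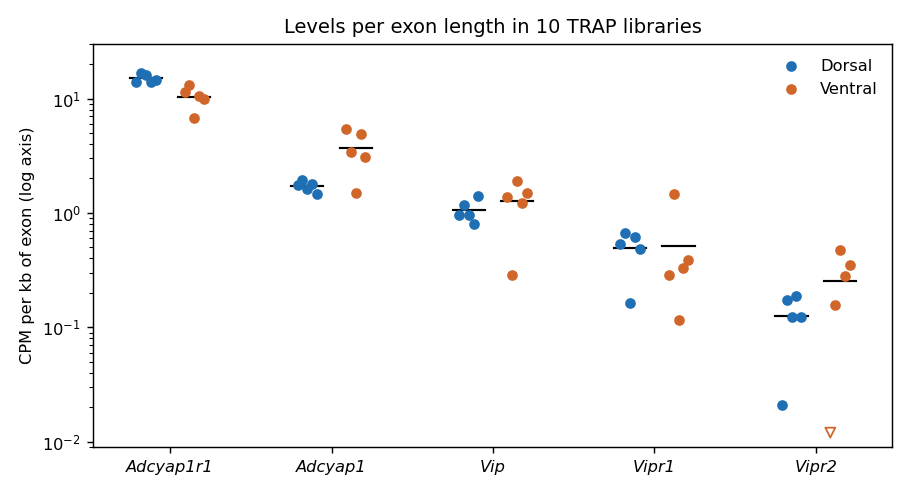
CPM per kb of exon (vertical log axis) of the 5 genes, ordered by their mean, in dorsal (blue) and ventral (orange) libraries; points are libraries, short lines are group means, and the open triangle marks the ventral library with 0 Vipr2 counts. Adcyap1r1 lies above every other gene in all 10 libraries.

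Neighbours in this order were compared within libraries (two-sided exact sign-flip permutation test, adjusted over the 4 neighbour pairs). The order came from the means of the same 10 libraries, so the data tested had set the direction of each pair. The p-values do not allow for that choice, and they take dorsal and ventral libraries together. Adcyap1r1 was above Adcyap1 in 10 of 10 libraries, 5.11-fold on average (permutation adjusted p = 0.00781). Adcyap1 was above Vip in 9 of 10 libraries, 2.25-fold on average (permutation adjusted p = 0.0117). Vip was above Vipr1 in 9 of 10 libraries, 2.60-fold (permutation adjusted p = 0.0312), and Vipr1 was above Vipr2 in 9 of 10, 3.26-fold (permutation adjusted p = 0.0312). The exon length of Vip includes a retained-intron transcript. With the longest protein-coding transcript as the length, the log2 ratio of Adcyap1 to Vip was 0.17 (permutation adjusted p = 0.684), so the order of the ligands depended on the length used. The places of Vip, Vipr1 and Vipr2 in the order also missed the threshold when single libraries were left out (permutation adjusted p up to 0.0625).

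The balance of receptor to ligand was read in each library as the ratio of Adcyap1r1 to Adcyap1 per kb of exon, which needs no scaling between libraries. It was 7.78, 8.59, 9.82, 7.78 and 9.77 in dorsal replicates 1 to 5. It was 2.10, 3.88, 4.45, 2.14 and 3.16 in ventral replicates 1 to 5. All dorsal libraries lay above all ventral libraries, ventral replicate 3 included, since both genes were low there. The geometric means were 8.70 dorsal and 3.01 ventral. The mean log2 ratio was 3.12 ± 0.17 dorsal and 1.59 ± 0.49 ventral (SD, n = 5 each), a difference of 1.53 or 2.89-fold (two-sided exact permutation p = 0.00794, the smallest that 5 against 5 allows). The ratio rests on the same libraries as the fold changes of the 2 genes and is not independent of them.

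**Figure D3:**
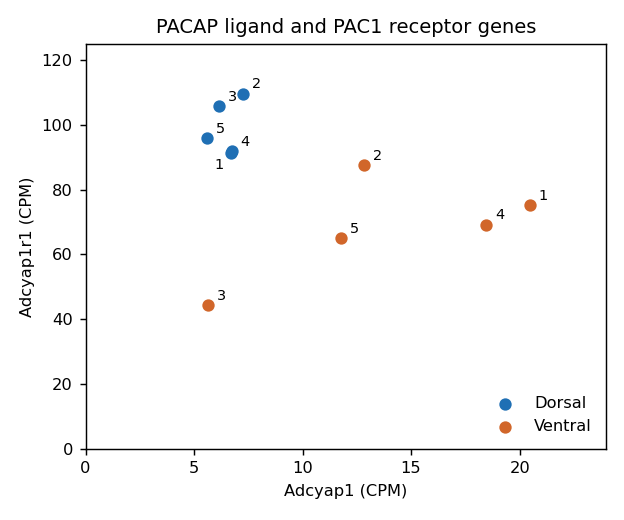
Adcyap1 CPM (horizontal axis) against Adcyap1r1 CPM (vertical axis), each point a library labelled with its replicate number, dorsal in blue and ventral in orange. The dorsal libraries group at low ligand and high receptor levels, while the ventral libraries spread from 5.66 to 20.5 CPM of Adcyap1 at lower Adcyap1r1.

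Measures of other cells and of library quality moved with the groups, and their part in these differences was not tested. Astrocyte markers (8 of 8 measured, none at 0) summed to 1950 to 2230 CPM in dorsal and 844 to 1430 CPM in ventral libraries, led by the glutamate transporter Slc1a2. These sums did not overlap between the groups, but Slc1a2 alone had 1774 CPM of them in dorsal and 870 CPM in ventral libraries on average. By gene, 4 of the 8 were called dorsal-enriched (15.7% of all tested genes), which is the direction of Adcyap1r1. Within the ventral group, replicate 3 had the highest sum (1430 CPM) and the lowest Adcyap1r1 (44.3 CPM). Ventral replicate 2 had the lowest sum (844 CPM) and the highest Adcyap1r1 (87.5 CPM). Within the dorsal group, replicate 3 had the highest sum (2230 CPM) with 106 CPM of Adcyap1r1. Dorsal replicate 2 had the lowest sum (1950 CPM) with 109.7 CPM of Adcyap1r1. How these sums and Adcyap1r1 relate was not tested. Aldh1l1 was called ventral-enriched (log2 fold change -1.72, edgeR adjusted p = 0.0164), and Aldoc was higher in ventral without being called (-0.56, edgeR adjusted p = 0.00532); both were named after their values were seen. Vip and Cck interneuron markers (10 of 10, none at 0), led by the cannabinoid receptor gene Cnr1, summed to 1030 to 1220 CPM in dorsal and 1170 to 1370 CPM in ventral libraries. Those sums overlap, yet 6 of the 10 genes were higher in ventral at an adjusted p below 0.05 (14.6% of all tested genes). Htr3a, Npas1 and Sncg were called ventral-enriched, and Prox1 and Crh dorsal-enriched, all named after their values were seen. Subiculum markers (7 of 7, none at 0), led by Tshz2, summed to 37.8 to 66.2 CPM in dorsal and 46.0 to 55.9 CPM in ventral libraries. Of these 7 genes, 3 were called dorsal-enriched (15.7% of all tested genes) and 0 ventral-enriched (9.85%). Tshz2 itself was higher in ventral without being called (log2 fold change -0.51, edgeR adjusted p = 0.00843). Read pairs outside genes made up 27.0 ± 5.08% in dorsal and 14.3 ± 2.99% in ventral libraries, and mRNAs encoded by the mitochondrial genome 2970 ± 315 CPM and 790 ± 307 CPM (SD, n = 5 each; two-sided exact permutation p = 0.00794 for both).

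The sums of 5 further marker lists overlapped between the groups. Dentate granule cell markers (8 of 8 measured) summed to 407 to 533 CPM in dorsal and 390 to 541 CPM in ventral libraries. CA1 and CA3 pyramidal markers (7 of 7) summed to 466 to 540 CPM and 429 to 552 CPM. Microglia markers (7 of 7) summed to 24.8 to 27.9 CPM and 15.6 to 35.9 CPM. Endothelial and mural markers (7 of 7) summed to 100.5 to 195 CPM and 119 to 172 CPM, and ependymal and choroid markers (5 of 5) to 122 to 964 CPM and 178 to 422 CPM. No gene of these lists was without counts in all libraries. By gene, 2 granule cell markers were called in each direction, as was 1 pyramidal marker in each. In addition, 1 microglia and 3 ependymal and choroid markers were called dorsal-enriched. The shares over all tested genes were 15.7% dorsal-enriched and 9.85% ventral-enriched.

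Around the members, 60 of 82 genes in 6 lists of the same family and pathway were tested. Of these, 7 (11.7%) were called dorsal-enriched and 3 (5.0%) ventral-enriched, both below the shares over all tested genes given above. The median log2 fold change was 0.02, and that of all tested genes was -0.004.

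The related class B1 peptides were scarce, and 4 of 16 passed the filter. Of these, Calca passed it through the ventral libraries, where it was higher. Calca, which encodes calcitonin and CGRP, was ventral-enriched at 0.419 ± 0.318 CPM dorsal and 2.31 ± 0.545 CPM ventral (SD, n = 5 each; log2 fold change -2.33 ± 0.50 SE, edgeR adjusted p = 0.00234). Crh, corticotropin-releasing hormone, was dorsal-enriched at 4.25 ± 1.65 CPM dorsal and 1.38 ± 2.0 CPM ventral (log2 fold change 1.83 ± 0.60 SE, edgeR adjusted p = 0.0304), a call lost under 12 of 24 alternatives, DESeq2 among them. Gip, Ucn, Adm2, Iapp and Pth2 had no counts in any library. Among class B1 receptors and their accessory RAMP proteins, 8 of 15 were tested and 2 were dorsal-enriched (15.7% of all tested genes). Glp1r, the GLP-1 receptor gene, had 21.5 ± 5.99 CPM dorsal and 6.27 ± 4.99 CPM ventral (log2 fold change 1.84 ± 0.37 SE, edgeR adjusted p = 0.00252), and Ramp2, named after its value was seen, was the other (log2 fold change 1.09, edgeR adjusted p = 0.0185). By edgeR 0 of this list were ventral-enriched, 0 also at an unadjusted p below 0.05 and by DESeq2. Calcrl, a RAMP partner used as a mossy cell marker, had 7.52 ± 7.89 CPM dorsal and 8.25 ± 2.63 CPM ventral (edgeR adjusted p = 0.892).

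For precursor processing, 10 of 11 genes were tested and 0 were called by edgeR in either direction, with 3 higher in dorsal and 1 higher in ventral at an unadjusted p below 0.05 and 1 called ventral-enriched by DESeq2. The prohormone convertase gene Pcsk1, which cuts precursors, had 19.0 ± 9.92 CPM dorsal and 19.5 ± 9.32 CPM ventral (SD, n = 5 each; edgeR adjusted p = 0.839). Its relative Pcsk2 had 115 ± 6.05 CPM and 97.7 ± 7.97 CPM (edgeR adjusted p = 0.0762), with no overlap between the groups. Libraries did not overlap, with dorsal higher, for 9.81% of all tested genes. Pam, which amidates peptide ends, had 110.2 ± 12.9 CPM and 108 ± 10.4 CPM (edgeR adjusted p = 0.895).

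Of the G proteins, adenylyl cyclases and phospholipases C beta, through which the receptors signal, 4 of 16 tested genes were dorsal-enriched. The share over all tested genes was 15.7%. Adcy1, a calcium-stimulated adenylyl cyclase, had 743 ± 71.5 CPM dorsal and 330 ± 44.7 CPM ventral (SD, n = 5 each; log2 fold change 1.17 ± 0.11 SE, edgeR adjusted p = 1.63e-05). Adcy5, Adcy6 and Plcb4 were the others and were named after their values were seen, with log2 fold changes of 0.65, 0.80 and 0.94. The Adcy6 call was lost under 5 of 24 alternatives (adjusted p up to 0.0764), and that of Adcy5 without ventral replicate 2. By edgeR 0 were ventral-enriched, with 1 at an unadjusted p below 0.05 and 0 by DESeq2. Gnas, the Gs alpha subunit gene, had 64.4 ± 13.0 CPM dorsal and 87.7 ± 25.4 CPM ventral (edgeR adjusted p = 0.0715). Of the 8 adenylyl cyclase genes tested, 3 were called (25.5% of all tested genes in either direction) and 5 were not.

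Downstream of cAMP, 1 of 14 tested genes for protein kinase A, Epac and type 4 phosphodiesterases was called. Over all tested genes 25.5% were called in either direction. Prkacb, a catalytic subunit of protein kinase A, had 417 ± 46.5 CPM dorsal and 687 ± 70.1 CPM ventral (SD, n = 5 each; log2 fold change -0.72 ± 0.10 SE, edgeR adjusted p = 0.000253). By edgeR 0 of this list were dorsal-enriched, with 3 higher in dorsal at an unadjusted p below 0.05 and 0 by DESeq2. At that unadjusted level 7 were higher in ventral. An edgeR adjusted p below 0.05 was reached by 4 with ventral higher (14.6% of all tested genes) and by 1 with dorsal higher (19.0%). Of the 8 CREB family and coactivator genes, Crem, which encodes cAMP-responsive activators and repressors, was ventral-enriched at 27.7 ± 3.54 CPM dorsal and 42.5 ± 15.7 CPM ventral (log2 fold change -0.59 ± 0.21 SE, edgeR adjusted p = 0.0408), a call lost under 12 of 24 alternatives. By edgeR 0 were dorsal-enriched, with 2 higher in dorsal at an unadjusted p below 0.05 and 0 by DESeq2. At that unadjusted level 2 were higher in ventral, and DESeq2 called 2 ventral-enriched.

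**Figure D4:**
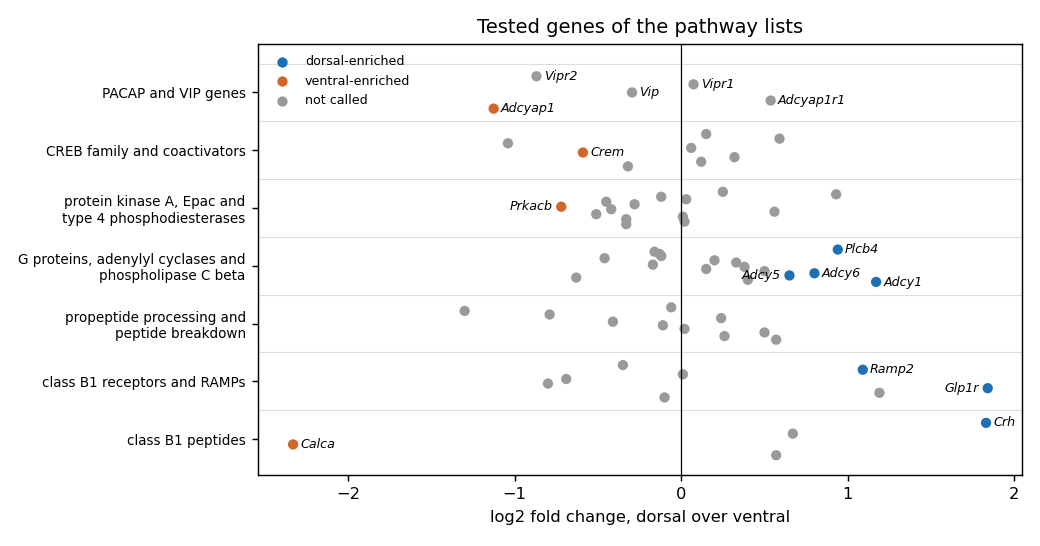
Log2 fold change of dorsal over ventral (horizontal axis) for each tested gene of the 6 pathway lists and for the PACAP and VIP genes (rows); each point is a gene, blue if called dorsal-enriched, orange if called ventral-enriched and grey otherwise. The called genes to the right are Crh, Glp1r, Ramp2, Adcy1, Adcy5, Adcy6 and Plcb4. Those to the left are Adcyap1, Prkacb, Crem and Calca.

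Genes that varied like a member within the groups were ranked by Pearson's r of log2 CPM after subtraction of each group's mean, over 10 libraries and 10606 genes. The closest to Adcyap1 were Dmac1 (r = 0.99), Sec24b (r = 0.977) and Fank1 (r = 0.975). The closest to Adcyap1r1 were Pomt2 (r = 0.979), Fndc5 (r = 0.975) and C2cd3 (r = 0.972). The points share library and depth, so these values are a description.

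**Figure D5:**
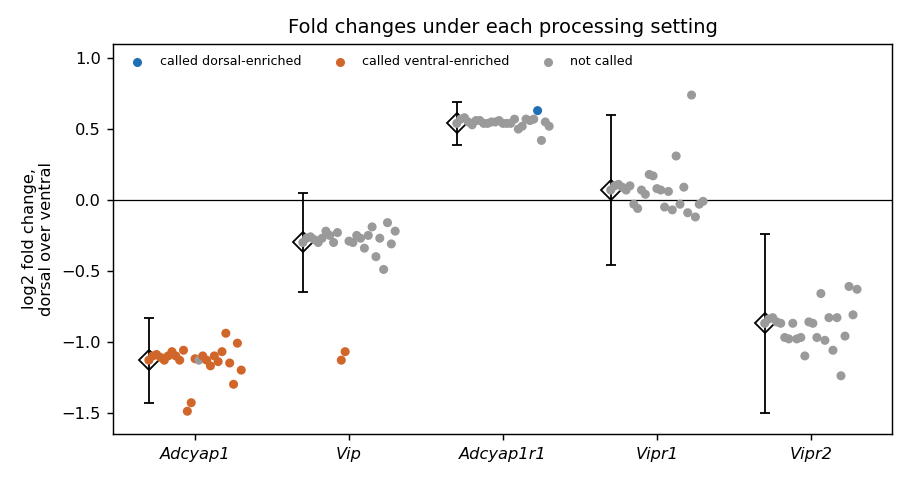
Log2 fold change of dorsal over ventral (vertical axis) of the 5 genes under every processing setting; each point is a setting, coloured by its call, and the open diamond with its SE is the value reported above. Adcyap1 stays between -1.49 and -0.94 and Adcyap1r1 between 0.42 and 0.63, while Vipr1 lies on both sides of 0.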

How the data were processed

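Ribosome-bound mRNA of 5 dorsal and 5 ventral TRAP libraries was amplified with the Ovation kit and sequenced in paired ends. According to the submitters' processing notes, reads were aligned to GRCm38 with STAR 2.5.2b and counted with HTSeq 0.7.2; the annotation release and strand setting were not given in the sources used here. The values deposited by the authors are raw counts per Ensembl gene. Symbols, coordinates and exon lengths came from GENCODE for GRCm38, which matched 54809 of 54838 identifiers.

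A gene was tested if at least 2 libraries had more than 1 CPM. After TMM scaling, dorsal and ventral libraries were compared with the quasi-likelihood test of edgeR 4.0.16 (R 4.3.3), and p-values were adjusted by Benjamini-Hochberg across the 16806 genes. The script for these fits was tested on simulated data. Its current dispersion estimate was chosen over that of edgeR 3 after both sets of counts had been seen. The SE was taken from the log2 fold change and the F statistic. Per-length ratios used counts plus 0.5. Single values were compared by exact permutation tests in scipy. Each library is a tissue pool, with dorsal and ventral pools possibly from the same animals, and no pair of one group was a duplicate (chi-square per degree of freedom 4.36 to 45.1). Floors cover counting error only, as reads amplified from the same molecule cannot be told apart.

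The members and lists were chosen with earlier results of these data known. The genes named are the 5 members, the called gene of each pathway list with the largest fold change in each direction, and Gnas, Adcy1, Pcsk1, Pcsk2, Pam, Calcrl and Crem. Genes outside this rule are said to be named after their values were seen, and peptides without counts are named as such. The genes most like a member and the most abundant gene of a marker list are also named. The alternatives were other scalings, filters, thresholds, tests (DESeq2 1.42.0), the replicate number as a block, GC content and length offsets, other transcript lengths and each library left out. The result of 1 marker list is not reported here.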

Additional observations from a re-analysis of the deposited data

Results flagged for a closer look

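In 2 of 38 groups of 5 values examined, a single library lay apart by a gap of more than 0.71 of the group's range, and chance alone does so in about 1 of 20 groups. Vipr1 in ventral replicate 2 had 8.54 CPM, and the gap to the next ventral library was 0.798 of the range. Without that library the log2 fold change of Vipr1 was 0.74, still not called. The mRNAs encoded by the mitochondrial genome summed to 3520 CPM in dorsal replicate 2, with a gap of 0.81 of the range.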

How the results depend on the processing

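Adcyap1 was called ventral-enriched under every alternative except an adjusted p below 0.01 (log2 fold change -1.13, adjusted p = 0.0108), and with libraries left out its log2 fold change was -1.30 to -0.94. That threshold left 0 members, 897 of all tested genes and 2 pathway genes called ventral-enriched, and 1498 of all tested genes and 4 pathway genes called dorsal-enriched. GC content and length offsets moved Vip to -1.13, called, and gave 2 members, 3123 of all tested genes and 6 pathway genes ventral-enriched, with 2032 of all tested genes dorsal-enriched where the main counts were 1655 and 2636. With the replicate block added to the offsets, Vip was at -1.07 and the ventral-enriched counts were 2, 3173 and 7. The number of pathway genes called ventral-enriched was 5 with no expression filter, DESeq2 and the likelihood-ratio test. The cause was not tested. The edgeR 3 dispersions, added after seeing the data, gave 2217 dorsal-enriched and 1408 ventral-enriched genes.

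Leaving out libraries gave 0 to 1 members dorsal-enriched and 2 to 5 pathway genes ventral-enriched, with a log2 fold change of 0.42 to 0.63 for Adcyap1r1, -0.49 to -0.16 for Vip, -1.24 to -0.61 for Vipr2 and -0.12 to 0.74 for Vipr1. Vipr1 turned to -0.03 with DESeq2, -0.06 with the likelihood-ratio test and -0.05 with the edgeR 3 dispersions. It also turned to -0.07 without dorsal replicate 2, -0.03 without dorsal replicate 4, -0.09, -0.12, -0.03 and -0.01 without ventral replicates 1, 3, 4 and 5. Vipr2 was not tested with CPM above 1 in at least 5 libraries. The level of Vipr1 over Vipr2 (log2 ratio) was 1.55 with the longest annotated transcript and 1.55 with the longest protein-coding transcript as length, with adjusted permutation p of 0.0664 and 0.0885, and 1.28 to 2.11 with libraries left out; Vip over Vipr1 was then 1.09 to 1.79. Adcyap1 over Vip was 0.17 with the protein-coding length, an alternative added after seeing the data.

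Groups share replicate numbers, and the pools may share animals, but same-numbered libraries did not deviate together (correlations -0.02 to 0.043, 1 of 5 closest to its own number). With the replicate block Adcyap1 was at -1.06 (adjusted p = 0.0121) and no member's call changed. The receptor to ligand ratio within same-numbered pairs differed by 1.53 (exact permutation p = 0.0625, the smallest that 5 pairs allow); with libraries left out it was 1.40 to 1.68 (p = 0.0159). Vipr2 rests on 0 to 33 counts per library.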
